A study of Mus musculus with 18 samples.

Results

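The 10 genes described here encode the main heat shock proteins of the cytosol and the mitochondria. They were taken by symbol from the 24394 named genes of a liver count table. Earlier results of these data were known when they were chosen. They are Hspa1a, Hspa1b and Hspa8 of the HSP70 family, the HSP70 partners Hsph1 and Dnajb1, the HSP90 genes Hsp90aa1 and Hsp90ab1, the small heat shock protein Hspb1, and the mitochondrial chaperonin pair Hspd1 and Hspe1. All 10 were in the table and all 10 passed the filter on low counts.

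RNA from 18 mouse livers was read with a kit that sequences the 3′ ends of polyadenylated transcripts, and the livers fall into 3 groups of 6. In the first group the mice bear tumours and have the genotype Alb-Cre+/+ STAT3f/f, here named Stat3-deleted. Their Cre recombinase, made from the albumin promoter, is meant to cut floxed Stat3 in hepatocytes. Which other cells of the liver keep the gene was not measured here. The second group is tumour-bearing wild-type (WT) mice and the third is control WT mice. The tumours come from PDA.69, a line derived from a KPC pancreatic ductal adenocarcinoma and labelled T cell low. The labels give that line for the control livers as well, and they give no age, sex, tumour site or time. There was no tumour-free Stat3-deleted group, so deletion and tumour cannot be told apart where Stat3-deleted livers are set against controls.

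Heat shock proteins are chaperones, which bind other proteins while these fold, refold or wait for degradation. HSP70 proteins bind short unfolded stretches with the help of J-domain proteins such as Dnajb1 and release them with the help of exchange factors such as Hsph1. HSP90 finishes the folding of kinases and steroid receptors, and Hspd1 with its lid Hspe1 folds proteins inside mitochondria. When unfolded protein builds up, the transcription factor HSF1 is freed from chaperones and binds heat shock elements, repeated GAA and TTC units, in the promoters of these genes. Stat3, the transcription factor that relays interleukin-6 signals to the acute-phase genes of hepatocytes, recognises a different spacing of the same units.

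Promoter windows of 300 bases, 250 before and 50 after each annotated start, were in the RefSeq table (GRCm38.p6) for 7 of the 10 genes. Hspa8, Hsp90aa1 and Hsp90ab1 had no entry. The matches below are shown because the heat shock element is what the promoters of the family are known to share. A pair of units 2 bases apart (GAANNTTC or TTCNNGAA) was found for 6 of the 7 genes, against 4587 of all 27025 genes in the table, and in 7 of their 10 windows, against 15.1% of all 32851 windows. A run of 3 units (GAANNTTCNNGAA or TTCNNGAANNTTC), which always contains 2 overlapping pairs, was found for Hspd1, Hspe1 and Hsph1, 3 of the 7 against 0.662% of all genes, and in 4 of the 10 windows against 0.603% of all windows. The Stat-type spacing (TTCNNNGAA) was found for 0 of the 7 and for 9.55% of all genes. These searches cover both strands. Dnajb1 was the gene with a window and without a match to the pair. In the lines below the capitals mark the paired units, and each stretch reads 5′ to 3′.
Hspe1 and Hspd1, shared promoter, chr1:55088053-55088082, plus strand: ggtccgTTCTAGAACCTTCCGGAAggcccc
Hsph1, chr5:149636348-149636377, minus strand: tagaatctTTCTCGAAggctcgagaagaag
Hsph1, chr5:149636278-149636307, minus strand: ctgcagaTTCTGGAAAGTTCtcctcagtag
Hspb1, chr5:135887794-135887843, plus strand: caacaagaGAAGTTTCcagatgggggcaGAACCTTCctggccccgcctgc
Hspa1b, chr17:34959314-34959363, minus strand: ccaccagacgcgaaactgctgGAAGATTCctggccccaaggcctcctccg
Hspa1a, chr17:34972232-34972281, minus strand: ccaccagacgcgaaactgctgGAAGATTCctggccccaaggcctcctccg
Hspe1 and Hspd1 lie head to head on chromosome 1 and share the first of these. The run begins 89 bases before the start of Hspe1 and is also in the window of Hspd1 on the other strand, where GENCODE M21 places it in an exon of Hspd1 annotated as untranslated. The run of 3 units of Hsph1 begins 15 bases after the start in 1 of its 2 windows, in an exon annotated as untranslated, and the same site lies in the other window. The windows of Hspa1a and Hspa1b had the same base at 296 of 300 positions (98.7%). The counts of genes and windows above thus include shared or near-identical sites more than once and are not counts of separate sites. A match of letters describes these windows, and binding was not measured.

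Libraries held 7211799 to 9532978 counts in Stat3-deleted livers, 6159553 to 8838849 in tumour-bearing WT livers and 5204378 to 7149953 in control livers. Levels are in CPM, counts scaled to a common library size by the TMM method. Differences are log2 fold changes from 1 edgeR quasi-likelihood fit over 11218 genes, and a gene is called where the Benjamini-Hochberg adjusted p was under 0.05. "The tumour comparison" is tumour-bearing WT against control WT livers, and "the Stat3 comparison" is Stat3-deleted against tumour-bearing WT livers. Stat3 itself had 99.4 to 132 CPM in Stat3-deleted livers, 163 to 264 CPM in tumour-bearing WT livers and 93.6 to 148 CPM in control livers. It fell in the Stat3 comparison (log2 fold change -0.85, SE 0.14, adjusted p = 0.00043) and rose in the tumour comparison (0.93, SE 0.14, adjusted p = 0.000302). Between Stat3-deleted and control livers the difference was 0.08 (SE 0.14, adjusted p = 0.803). Whether the counted 3′ end lies inside the deleted part is not given in the sources used here. In whole livers, fewer cells of a type and less RNA per cell cannot be told apart.

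None of the 10 genes was called by edgeR in any of the 3 comparisons. In the tumour comparison 0 of 10 were called, where 2.25% of all genes tested were. The log2 fold change was below 0 for 8 of the 10, against 49.4% of all genes, with a median of -0.51 against 0.00 over all genes. At an unadjusted p under 0.05, 6 of the 10 were lower (Hsph1, Hsp90aa1, Hsp90ab1, Hspb1, Hspd1 and Hspe1), against 7.56% of all genes, and 0 were higher, against 8.63%. Of the 10, 0 were called in the Stat3 comparison, where 6.12% of all genes were. Here 8 of the 10 were above 0, against 45.9% of all genes, with a median of 0.28 against -0.03. Hspb1 and Hspe1 were higher at an unadjusted p under 0.05, 2 of 10 against 8.7% of all genes. In Stat3-deleted against control livers 0 of 10 were called, where 4.85% of all genes were, with a median of -0.12 against -0.01. Hsp90aa1 was lower there at an unadjusted p under 0.05, 1 of 10 against 11.5% of all genes.

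Other tools called some of these genes. DESeq2 called Hspb1, Hspd1 and Hspe1 lower in the tumour comparison, Hspe1 higher in the Stat3 comparison and 0 in Stat3-deleted against control livers. Limma voom called Hspe1 higher in the Stat3 comparison and 0 in the others. Library totals in place of TMM moved the median of all genes in the tumour comparison by -0.19 and in Stat3-deleted against control livers by -0.12. In the tumour comparison Hspb1, Hspd1 and Hspe1 were then called lower by edgeR (-1.25, -0.62 and -0.59). The tumour and Stat3 comparisons share the 6 tumour-bearing WT livers, so opposite signs in them are not independent of each other.

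**Figure D1:**
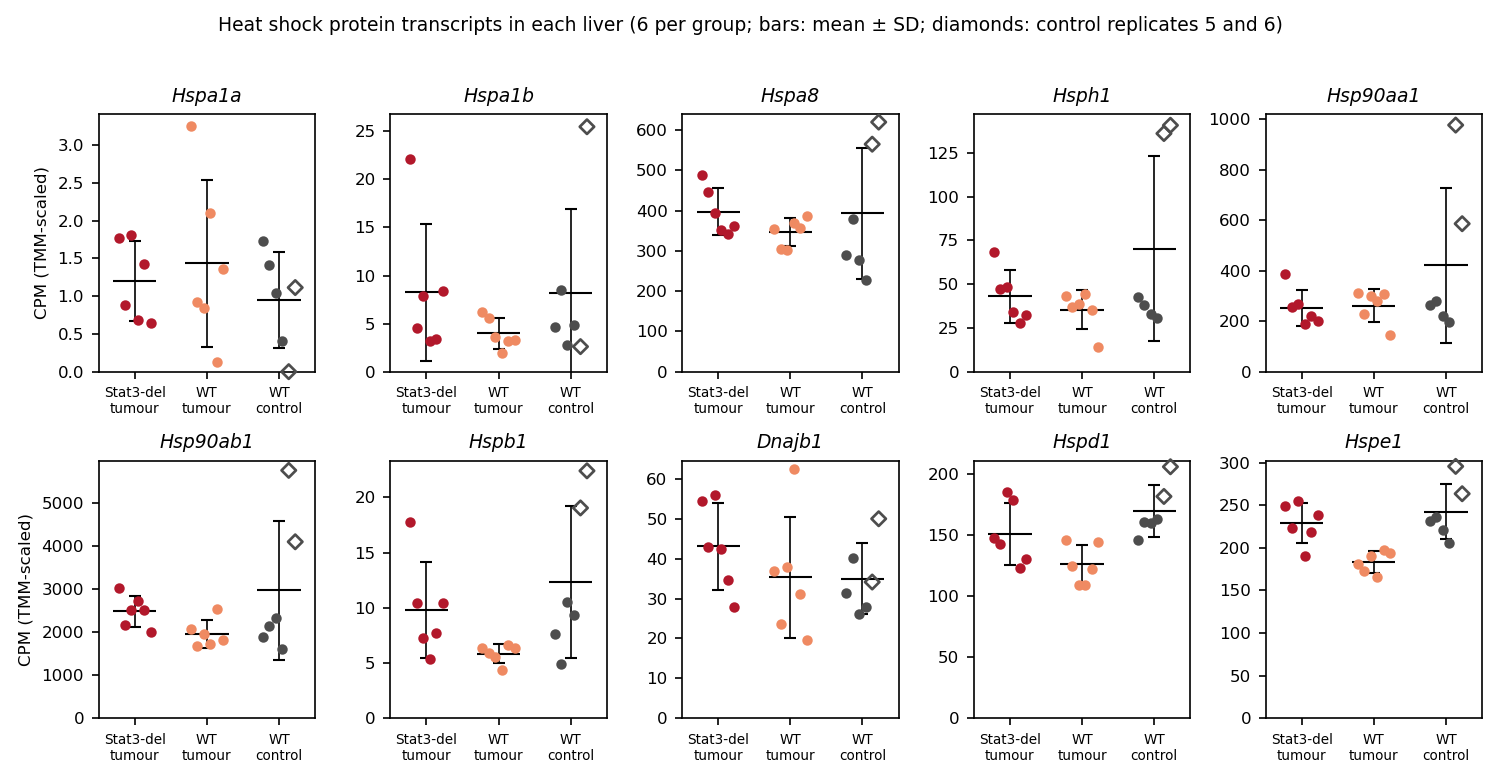
Level of the 10 heat shock genes in each liver (CPM, linear axes from 0), with Stat3-deleted tumour-bearing livers at the left, tumour-bearing WT in the middle and control WT at the right of each panel; lines and bars are the mean ± SD of 6 livers, cut at 0 for Hspa1b in controls. The open diamonds are control replicates 5 and 6, which lie above the other 4 control livers for 7 of the 10 genes and reach 976 CPM of Hsp90aa1 and 141 CPM of Hsph1.

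In the control group 2 livers stood apart. In control replicates 5 and 6, 7 of the 10 genes (Hspa8, Hsph1, Hsp90aa1, Hsp90ab1, Hspb1, Hspd1 and Hspe1) were in both above the other 4 control livers, as were 15.3% of all genes tested. For Hsph1 and Hsp90aa1 both livers were over 2 times the highest of the other 4, which held for 0.205% of all genes. The 10 genes together took 0.813% and 0.627% of all counts in these 2 livers. They took 0.301 to 0.452% in Stat3-deleted livers, 0.205 to 0.341% in tumour-bearing WT livers and 0.274 to 0.364% in the other 4 controls. The 2 livers were singled out after their values were seen. Nothing in the labels sets them apart but their numbers, the highest among the controls. Control replicate 4 is grouped with them below in a run of higher numbers, although its number lies under theirs. The number of tumour-bearing WT replicate 6 lies between theirs. They had the fewest genes detected among the controls, 13436 and 13386 against 13739 to 13818. Cirbp, an RNA-binding protein induced by mild cold, was lowest there among the 18 livers, at 13.7 and 8.07 CPM. The part of either in the levels of the heat shock genes was not tested.

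**Figure D2:**
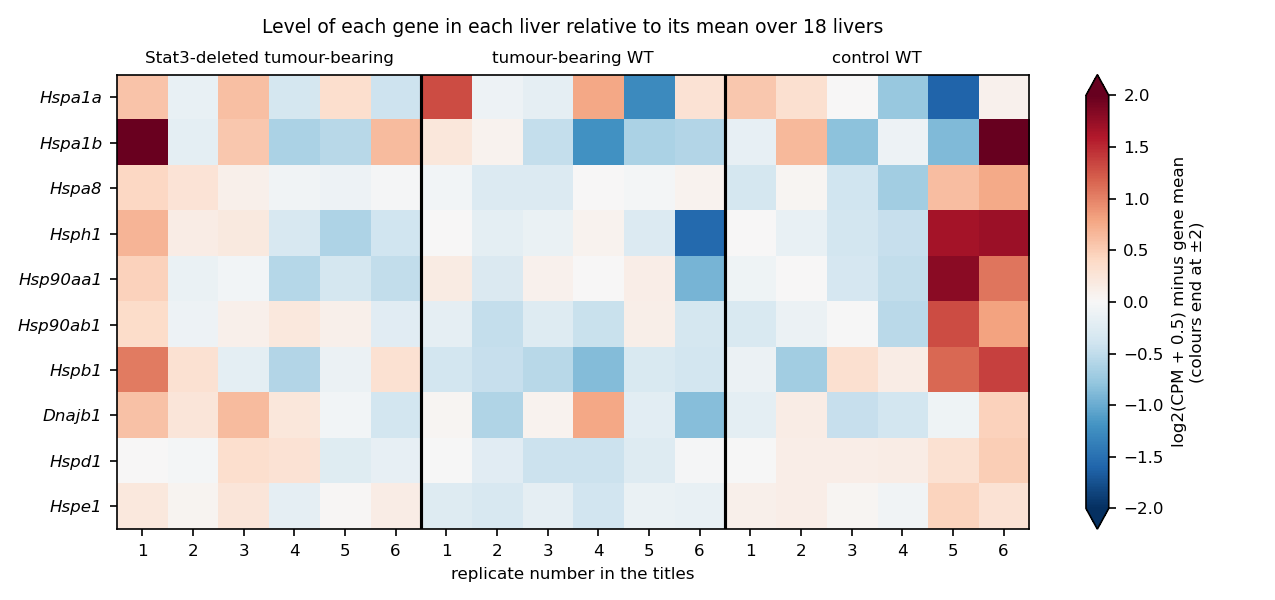
Level of each gene in each liver as log2(CPM + 0.5) minus the gene's mean over 18 livers, with red above and blue below the mean; columns are the 6 livers of each group by replicate number. Control replicates 5 and 6 are red for most rows, Stat3-deleted replicate 1 is high for Hspa1b, Hsph1 and Hspb1, and tumour-bearing WT replicate 6 is the lowest liver for Hsph1 and Hsp90aa1.

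The stress-inducible HSP70 gene Hspa1b (chromosome 17, 34956429 to 34959238, GRCm38.p6 as for all positions here) and its neighbour Hspa1a (34969359 to 34972156) rested on few counts. Hspa1b had 3.22, 6.17 and 22.1 CPM (lowest, median, highest) in Stat3-deleted livers, 1.97, 3.47 and 6.19 CPM in tumour-bearing WT livers and 2.60, 4.74 and 25.5 CPM in control livers. The groups overlapped, and Stat3-deleted replicate 1 and control replicate 6 each stood far above its group. The log2 fold change of Hspa1b was -1.04 (SE 0.53, adjusted p = 0.341) in the tumour comparison and 1.05 (SE 0.53, adjusted p = 0.281) in the Stat3 comparison. Hspa1a rested on 5 to 15 counts per library in Stat3-deleted livers, 1 to 21 in tumour-bearing WT livers and 0 to 12 in control livers. Its differences, 0.58 (SE 0.59) and -0.23 (SE 0.57) in the same comparisons, are imprecise.

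The Hspa1a and Hspa1b transcripts of GENCODE aligned with 84.3% identical columns over their full length but with 50.1% over their last 300 bases, where 3′ reads tend to fall. Of 226 windows of 75 bases there, 0 occurred in the other transcript. How the authors treated reads that map to both genes is not given in the sources used here. Summed over the pair, the difference was -0.76 (SE 0.49, adjusted p = 0.467) in the tumour comparison and 0.80 (SE 0.49, adjusted p = 0.384) in the Stat3 comparison.

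Hspa8 (chromosome 9, 40801276 to 40805202) is the constitutive cytosolic HSP70, which also serves chaperone-mediated autophagy. It had 342, 377 and 489 CPM in Stat3-deleted livers, 303, 356 and 388 CPM in tumour-bearing WT livers and 228, 334 and 620 CPM in control livers. The tumour-bearing WT livers lay inside the range of the controls, whose replicates 5 and 6 were highest at 565 and 620 CPM. The difference in the tumour comparison was -0.18 (SE 0.20, adjusted p = 0.697) with those 2 controls and 0.22 (SE 0.15, adjusted p = 0.608) without them, so its sign rests on them. In the Stat3 comparison it was 0.20 (SE 0.20, adjusted p = 0.626).

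Hsph1 (chromosome 5, 149616843 to 149636498) is the HSP110 exchange factor that resets HSP70. It had 27.6, 40.4 and 68.5 CPM in Stat3-deleted livers, 14.1, 37.9 and 44.5 CPM in tumour-bearing WT livers and 30.6, 40.6 and 141 CPM in control livers. The medians were close to each other. The livers that stood out were control replicates 5 and 6, at 136 and 141 CPM against 30.6 to 42.9 CPM in the other 4 controls, and tumour-bearing WT replicate 6 at 14.1 CPM. In the tumour comparison the difference was -0.99 (SE 0.36, adjusted p = 0.174) with control replicates 5 and 6 and -0.05 (SE 0.26, adjusted p = 0.958) without them. In Stat3-deleted against control livers it was -0.71 (SE 0.36, adjusted p = 0.268) with and 0.23 (SE 0.27, adjusted p = 0.668) without them.

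Dnajb1 (chromosome 8, 83608175 to 83612653) is the HSP40 that delivers substrates to HSP70. It had 27.8, 42.7 and 56.04 CPM in Stat3-deleted livers, 19.7, 34.1 and 62.3 CPM in tumour-bearing WT livers and 26.1, 32.8 and 49.97 CPM in control livers. The groups overlapped, and control replicate 5, so high in Hsph1, was inside the range of the other controls here at 34.1 CPM. The log2 fold change of Dnajb1 was 0.01 (SE 0.23, adjusted p = 0.987) in the tumour comparison, with a 95% interval from -0.47 to 0.50. It was 0.29 (SE 0.23, adjusted p = 0.535) in the Stat3 comparison.

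Hsp90aa1 (chromosome 12, 110691036 to 110696395), the inducible HSP90 gene, had 187, 237 and 385 CPM in Stat3-deleted livers, 146, 289 and 312 CPM in tumour-bearing WT livers and 198, 272 and 976 CPM in control livers. All tumour-bearing livers of both genotypes lay below control replicates 5 and 6, at 976 and 586 CPM, and overlapped the other 4 controls at 198 to 281 CPM. Its difference in the tumour comparison was -0.68 (SE 0.32, adjusted p = 0.283) with those 2 controls and 0.10 (SE 0.21, adjusted p = 0.891) without them. In Stat3-deleted against control livers it was -0.74 (SE 0.32, adjusted p = 0.179) with and 0.05 (SE 0.21, adjusted p = 0.924) without them.

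Hsp90ab1 (chromosome 17, 45567778 to 45573261), the constitutive HSP90 gene, had 2000, 2505 and 3014 CPM in Stat3-deleted livers, 1672, 1883 and 2537 CPM in tumour-bearing WT livers and 1607, 2229 and 5755 CPM in control livers. Control replicates 5 and 6 were again highest, at 5755 and 4097 CPM, and the other 4 controls overlapped both tumour-bearing groups. In the tumour comparison the difference was -0.60 (SE 0.24, adjusted p = 0.215) with those 2 controls and -0.04 (SE 0.16, adjusted p = 0.943) without them. In the Stat3 comparison it was 0.34 (SE 0.24, adjusted p = 0.465), with all 6 Stat3-deleted livers above the mean of the tumour-bearing WT livers. The ratio of Hsp90ab1 to Hsp90aa1 counts within a liver was 7.83 to 14.5 in Stat3-deleted livers, 6.16 to 12.4 in tumour-bearing WT livers and 5.89 to 10.5 in control livers. The groups overlapped in that ratio too.

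Hspb1 (chromosome 5, 135887919 to 135889563) is a small heat shock protein that holds unfolded proteins without using ATP. It had 5.40, 9.04 and 17.7 CPM in Stat3-deleted livers, 4.33, 6.14 and 6.66 CPM in tumour-bearing WT livers and 4.94, 9.94 and 22.4 CPM in control livers. The tumour-bearing WT livers were the narrowest group and overlapped the low end of both others. The difference in the tumour comparison was -1.07 (SE 0.32, adjusted p = 0.0798), below the mean of the controls in 6 of 6 livers. It was called without control replicate 2 (-1.25, adjusted p = 0.0269) and by DESeq2 (-1.08, adjusted p = 0.0273). Without control replicates 5 and 6, at 19.1 and 22.4 CPM, it was -0.48 (SE 0.29, adjusted p = 0.528). In the Stat3 comparison it was 0.74 (SE 0.32, adjusted p = 0.195), above the mean of the tumour-bearing WT livers in 5 of 6.

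The mitochondrial chaperonin genes had the smallest errors of the 10 in all 3 comparisons. Hspe1 (chromosome 1, 55088148 to 55091317), the lid of the folding chamber, had 191, 231 and 256 CPM in Stat3-deleted livers, 166, 185 and 197 CPM in tumour-bearing WT livers and 206, 234 and 296 CPM in control livers. All 6 tumour-bearing WT livers lay below all 6 controls, which held in that direction for 0.464% of all genes tested and for no other of the 10. The Stat3-deleted livers overlapped both groups. The difference in the tumour comparison was -0.40 (SE 0.12, 95% interval -0.64 to -0.16, adjusted p = 0.0705), which DESeq2 called (adjusted p = 0.0164). In the Stat3 comparison it was 0.32 (SE 0.12, 95% interval 0.08 to 0.56, adjusted p = 0.106), above the mean in 6 of 6 livers. That difference was called by DESeq2 (adjusted p = 0.0450) and limma voom (adjusted p = 0.0310). In Stat3-deleted against control livers it was -0.08 (SE 0.12, 95% interval -0.32 to 0.16, adjusted p = 0.756).

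Hspd1 (chromosome 1, 55077833 to 55088243), which forms the chamber itself, had 123, 145 and 185 CPM in Stat3-deleted livers, 109, 124 and 146 CPM in tumour-bearing WT livers and 146, 162 and 206 CPM in control livers. The highest tumour-bearing WT liver and the lowest control met at 146 CPM, and the Stat3-deleted livers spread over both groups. Its difference in the tumour comparison was -0.43 (SE 0.13, adjusted p = 0.0912), below the mean of the controls in 6 of 6 livers. In the Stat3 comparison it was 0.26 (SE 0.13, adjusted p = 0.271), above the mean in 5 of 6. The ratio of Hspe1 to Hspd1 counts within a liver was 1.07 to 1.83 in Stat3-deleted livers, 1.24 to 1.74 in tumour-bearing WT livers and 1.26 to 1.63 in control livers, with overlapping groups.

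**Figure D3:**
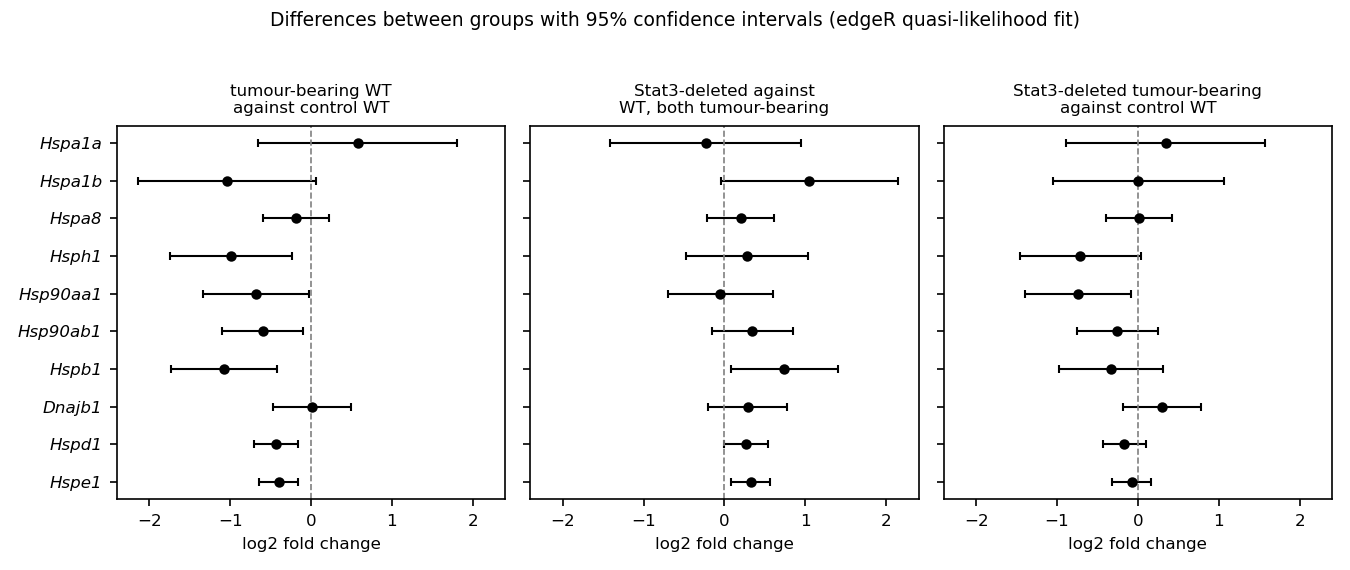
Log2 fold changes of the 10 genes with 95% confidence intervals from the edgeR fit, for the tumour comparison (left), the Stat3 comparison (middle) and Stat3-deleted against control livers (right). Hspe1 and Hspd1 have the narrowest intervals, from -0.64 to -0.16 for Hspe1 at the left, and Hspa1a and Hspa1b the widest; no gene passed the adjusted threshold.

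The fits were repeated without control replicates 5 and 6. These livers were singled out after the values of these genes were seen, with 7 of the 10 highest there among controls. Leaving them out lowers the control level of those genes and narrows their errors by selection. The shares over all genes are therefore not a fair measure beside the counts of members in these fits. In the tumour comparison Hspd1, at -0.34 (SE 0.14, adjusted p = 0.312), and Hspe1, at -0.31 (SE 0.12, adjusted p = 0.276), were the 2 that were still lower at an unadjusted p under 0.05, against 5.54% of all genes. The median of the 10 was then -0.05 against -0.01 over all genes, and edgeR called 0, where 1.11% of all genes were called. Hspb1, at -0.48, and Hspa1b, at -0.41 (SE 0.48, adjusted p = 0.778), had larger differences with larger errors, and Hsph1, Hsp90aa1 and Hsp90ab1 lay between -0.05 and 0.10. No test was made of a difference between genes. The other 2 comparisons moved as well when these controls were left out, although 0 of the 10 were called in either. In Stat3-deleted against control livers the median turned to 0.25, against -0.04 over all genes, and 9 of the 10 were above 0, against 46.4% of all genes. With all controls the median was -0.12 and 4 of the 10 were above 0. An upward shift follows from the choice of these 2 livers, so it is not a separate result about the members. Hspa8 was higher there at an unadjusted p under 0.05 (0.42, SE 0.15, adjusted p = 0.139), 1 of 10 against 8.88% of all genes. The Stat3 comparison kept the same 12 livers, with smaller errors from the shared fit (SE 0.43, against 0.53 with all controls, for Hspa1b). There 5 of the 10 were higher at an unadjusted p under 0.05 (Hspa1b, Hsp90ab1, Hspb1, Hspd1 and Hspe1), against 9.3% of all genes, with a median of 0.29 against -0.03. With all controls 2 of the 10 were. The estimates hardly moved, as for Hsp90ab1 at 0.34 in both fits (SE 0.14, against 0.24 with all controls). The larger count thus reflects the smaller errors. Within the livers with lower label numbers, replicates 1 to 3 of both WT groups, Hsph1 was 0.05 and Hsp90aa1 0.12 in the tumour comparison (adjusted p = 0.982 and 0.933). Within replicates 4 to 6 they were -1.72 and -1.27 (adjusted p = 0.195 and 0.275). In the edgeR test of the difference between these 2 runs of numbers 0 of the 10 genes were called. The unadjusted p there was under 0.05 for 3 of the 10, Hsph1 (-1.77, adjusted p = 0.676), Hsp90aa1 and Hspb1, against 6.88% of all genes. The Stat3-deleted livers have label numbers below those of all WT livers, in a run of their own. Deletion and run of numbers thus cannot be told apart in either comparison of Stat3-deleted livers.

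**Figure D4:**
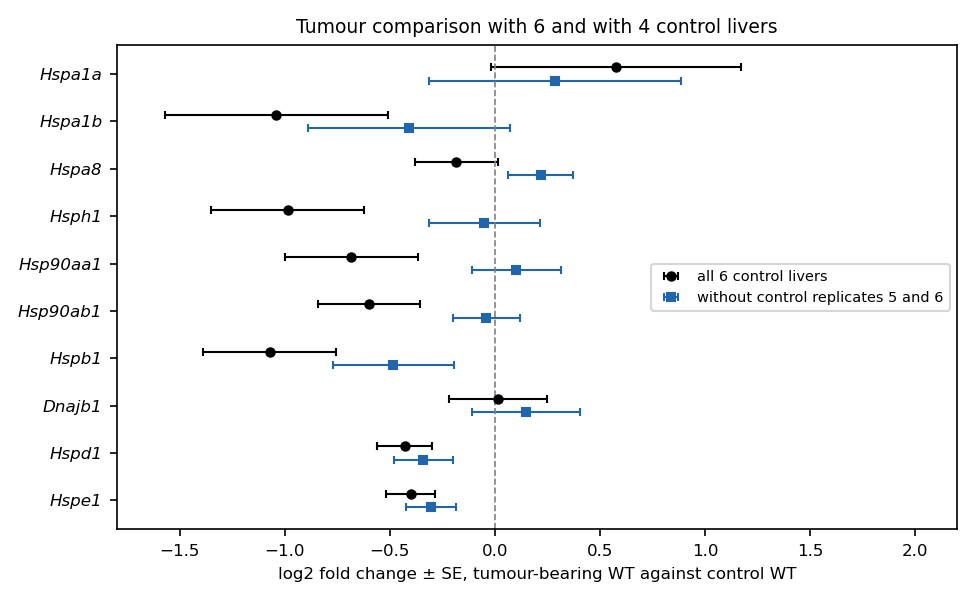
Log2 fold change ± SE of the 10 genes in the tumour comparison, with all 6 controls (circles) and without control replicates 5 and 6 (squares). Hsph1 is at -0.99 with all 6 controls and -0.05 with 4, while Hspd1 is at -0.43 and -0.34 and Hspe1 at -0.40 and -0.31.

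For each gene the 3 others with the nearest pattern over 18 livers were found by the root mean square difference of standardised log2 CPM, among 6564 to 6565 genes with at least 10 CPM on average. For Hsph1 they were Chordc1, an HSP90 co-chaperone (0.298), Hsp90aa1 (0.367) and Hspa5, the HSP70 of the endoplasmic reticulum (0.447). For Hsp90aa1 they were Hsph1 (0.367), Hspa5 (0.407) and Magt1 (0.408). For Hsp90ab1 they were Supt6 (0.400), Elp5 (0.483) and Prpf4 (0.485). The single nearest gene was Hspg2 (0.685) for Hspa1a, Socs7 (0.622) for Hspa1b, Nop2 (0.521) for Hspa8 and Nol8 (0.585) for Hspb1. It was Mfsd11 (0.675) for Dnajb1, D5Ertd579e (0.491) for Hspd1 and Ethe1 (0.573) for Hspe1. None of the 10 heat shock genes was among the 3 nearest of these members or of Hsp90ab1. Hspd1 and Hspe1, with a shared promoter, were not among each other's 3 nearest genes. The difference between them was 0.821, and the nearest of the 10 to Hspe1 was Hspb1 (0.662). Chordc1 had 118 and 106 CPM in control replicates 5 and 6 against 45.0 to 59.5 CPM in the other 4 controls, and Hspa5 had 5242 and 4935 against 1255 to 1589 CPM. Genes of a liver share its library and depth, and no test was made of these likenesses.

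**Figure D5:**
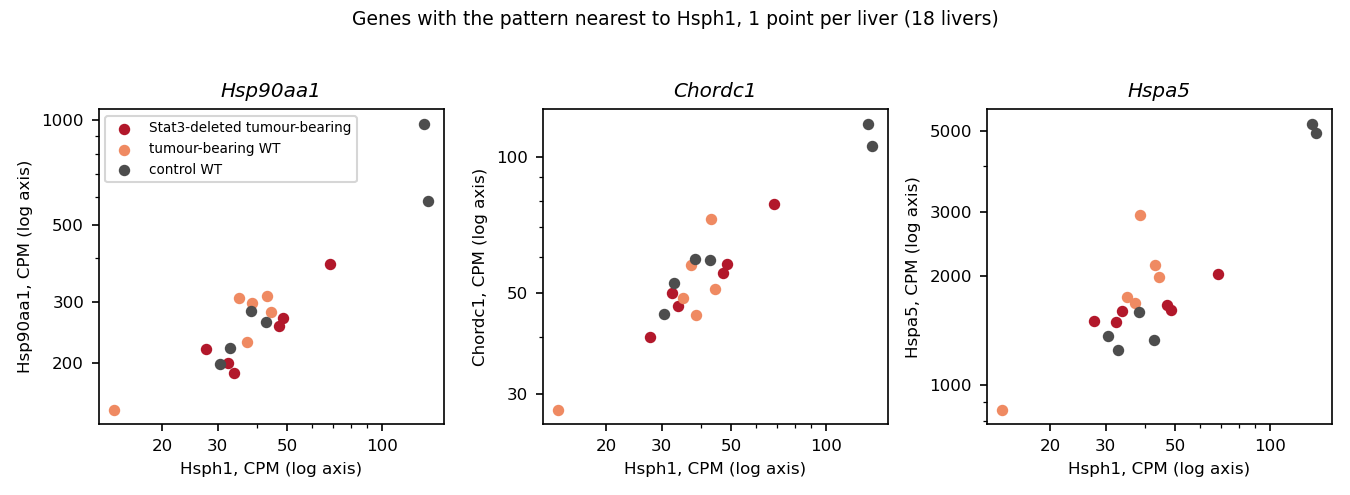
Level of Hsp90aa1, Chordc1 and Hspa5 against that of Hsph1, 1 point per liver, in CPM on log axes; colours mark Stat3-deleted tumour-bearing, tumour-bearing WT and control WT livers. The 2 control livers at the upper right, with 136 and 141 CPM of Hsph1, and the tumour-bearing WT liver at the lower left, with 14.1 CPM, stand apart from the other 15.

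The partners of these chaperones were read from wider lists. Of 26 cytosolic HSP70 and HSP90 co-chaperones 23 were tested, and in the tumour comparison edgeR called 0, with a median of -0.27 against 0.00 over all genes. At an unadjusted p under 0.05, 3 were higher, against 8.63% of all genes, and 6 lower, against 7.56%. DESeq2 and limma voom called 0 each. Without control replicates 5 and 6 the list had 24 tested genes, of which 2 were higher (6.63% of all genes) and 1 lower (5.54% of all genes) by that rule, and its median was -0.09 against -0.01. In control replicates 5 and 6, 14 of the 23 were in both above the other 4 controls, as were 15.3% of all genes. Among them were Stip1, which links HSP70 to HSP90 (185 and 112 against 47.7 to 57.7 CPM), Fkbp4 (272 and 241 against 116 to 146 CPM) and Ahsa1, which speeds the HSP90 ATPase (32.8 and 27.3 against 11.9 to 16.1 CPM). In the Stat3 comparison 1 of the 23 was called, against 6.12% of all genes. It was Hspa14, a ribosome-associated HSP70 relative, which fell. Hspa14 had 10.2 ± 1.44 CPM in Stat3-deleted and 15.6 ± 2.79 CPM in tumour-bearing WT livers (SD, n = 6 each), a difference of -0.61 on the log2 scale (SE 0.16, adjusted p = 0.0238). Its call was lost without any 1 of 5 livers and with library totals (adjusted p = 0.0682). DESeq2 and limma voom called Hspa14 in the Stat3 comparison too, and limma voom also called Fkbp5. In Stat3-deleted against control livers 1 of the 23 was called, against 4.85% of all genes. It was Fkbp5, an HSP90 co-chaperone of steroid receptors that glucocorticoids induce, which rose. Fkbp5 had 65.6 ± 16.4 CPM in Stat3-deleted and 14.9 ± 10.01 CPM in control livers (SD, n = 6 each), a difference of 2.13 on the log2 scale (SE 0.56, adjusted p = 0.0297). That call was lost without any 1 of 8 livers and without control replicates 5 and 6 together (1.86, adjusted p = 0.130). Limma voom called Fkbp5 there too, and DESeq2 gave it no adjusted p.

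Of 16 mitochondrial chaperones and proteases 15 were tested. Each of edgeR, DESeq2 and limma voom called 0 in the tumour comparison, where the unadjusted p was under 0.05 for 0 of them. The median was -0.09, and Hspa9, the mitochondrial HSP70, was at -0.20 (SE 0.12, adjusted p = 0.398). In the Stat3 comparison edgeR called 1 of the 15, against 6.12% of all genes. It was Trap1, the mitochondrial HSP90, which rose. Trap1 had 58.5 ± 10.4 CPM in Stat3-deleted and 40.7 ± 8.94 CPM in tumour-bearing WT livers (SD, n = 6 each), a difference of 0.52 on the log2 scale (SE 0.15, adjusted p = 0.0414). Its call was lost without any 1 of 10 livers. DESeq2 called Trap1 and Yme1l1 in the Stat3 comparison, and limma voom called Trap1, Clpx, Yme1l1 and Spg7. The edgeR differences there were -0.44 for Yme1l1 (SE 0.14, adjusted p = 0.0588), -0.43 for Clpx (SE 0.14, adjusted p = 0.0736) and 0.49 for Spg7 (SE 0.18, adjusted p = 0.112). Of the 15, 2 fell in Stat3-deleted against control livers, where 4.85% of all genes were called. Clpx, the unfoldase of the ClpXP protease, had 79.0 ± 11.6 CPM in Stat3-deleted and 119 ± 22.4 CPM in control livers (-0.59, SE 0.14, adjusted p = 0.0182). Yme1l1, a protease of the inner membrane, had 58.6 ± 6.64 CPM in Stat3-deleted and 84.8 ± 11.6 CPM in control livers (-0.53, SE 0.14, adjusted p = 0.0285). The call of Clpx was lost without Stat3-deleted replicate 3 (adjusted p = 0.0515), and that of Yme1l1 without any 1 of 6 livers and without control replicates 5 and 6 together (adjusted p = 0.0527).

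Of 5 tested heat shock factors and regulators, 7 other HSP70 and small heat shock proteins and 14 subunits of the cytosolic chaperonin CCT and prefoldin, edgeR called 0 in any comparison. At an unadjusted p under 0.05 0 of the first list, 0 of the second and 1 of the third passed in the tumour comparison. DESeq2 called Hsf2bp, a binding partner of Hsf2, in the Stat3 comparison and Hsf1 in Stat3-deleted against control livers, and limma voom called Hsf2bp, Hspa13 and Hspb11 in the Stat3 comparison. Hsf1, the factor that drives the heat shock response, had 5.48 ± 2.19 CPM in Stat3-deleted livers, 2.88 ± 1.21 CPM in tumour-bearing WT livers and 2.496 ± 0.76 CPM in control livers (SD, n = 6 each). Its difference was 0.92 (SE 0.35, adjusted p = 0.138) in the Stat3 comparison and 1.12 (SE 0.36, adjusted p = 0.0714) in Stat3-deleted against control livers, neither called by edgeR. Bag3, a co-chaperone that HSF1 induces, had 24.4 ± 7.70 CPM in Stat3-deleted livers, 21.1 ± 2.63 CPM in tumour-bearing WT livers and 23.8 ± 7.69 CPM in control livers. All 3 of its log2 fold changes lay between -0.18 and 0.21.

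Other signals moved along the same comparisons. Cirbp had 44.9 ± 28.8 CPM in tumour-bearing WT and 18 ± 6.81 CPM in control livers (SD, n = 6 each) and rose in the tumour comparison (1.32, SE 0.32, adjusted p = 0.0286). That call was lost without any 1 of 5 livers, control replicates 5 and 6 and tumour-bearing WT replicate 6 among them, and with library totals (adjusted p = 0.0549). Tumour-bearing WT replicate 6, lowest in Hsph1 and Hsp90aa1, was highest in Cirbp at 99.7 CPM and in Fkbp5 at 221 CPM, against 13.04 to 29.6 CPM of Fkbp5 in the rest of its group. Of 11 listed neutrophil markers 10 were in the table and 5 passed the filter on low counts, which a gene high in 1 group alone can pass. Of these 5, 4 rose in the tumour comparison, against 2.25% of all genes called, and 4 fell in the Stat3 comparison, against 6.12%. Ngp, among those that rose, had a median of 0.5 counts in control and 15 in tumour-bearing WT livers. The shares over all genes are thus not a fair measure beside these counts. Without control replicates 5 and 6 the list had 7 tested genes, of which 2 rose in the tumour comparison and 4 fell in the Stat3 comparison. The list summed to 40.4 to 107 CPM in Stat3-deleted livers, 70.4 to 358 CPM in tumour-bearing WT livers and 23.9 to 53.4 CPM in control livers. Of 14 tested immediate early and handling genes, 4 rose in the tumour comparison (Junb, Ier3, Fos and Btg2), against 2.25% of all genes called. In the Stat3 comparison 3 fell (Junb, Fos and Btg2), against 6.12%. Without control replicates 5 and 6 together, 1 of the 14 rose in the tumour comparison and 3 fell in the Stat3 comparison. The list summed to 208 to 473 CPM in Stat3-deleted livers, 272 to 1188 CPM in tumour-bearing WT livers and 285 to 344 CPM in control livers. Tumour-bearing WT replicate 6 had 39.8 CPM of Fos and 168 CPM of Btg2. Without it the tumour comparison gave 1.10 for Fos, against 2.66 with it, and 0.74 for Btg2, against 1.65 with it, and the Stat3 comparison gave -0.70 for Fos, against -2.26, and -0.62 for Btg2, against -1.53. None of these 4 differences was then called. In the tumour comparison the call was lost without any 1 of 9 livers for Fos and 12 for Btg2, and with library totals for both (adjusted p = 0.0510 and 0.0633). It was lost in the Stat3 comparison without any 1 of 8 livers for Fos and 6 for Btg2.

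Markers listed for further liver cell types and for hepatocytes also moved. Of 9 listed biliary and ductal markers 5 passed the filter on low counts, which a gene high in 1 group alone can pass. Of these 5, 1 rose in the tumour comparison, Sox9 (1.31, SE 0.24, adjusted p = 0.00276), against 2.25% of all genes called. In the Stat3 comparison 2 fell, Sox9 (-1.35, SE 0.24, adjusted p = 0.000883) and Spp1 (-2.06, SE 0.38, adjusted p = 0.00139), against 6.12% of all genes called. The list summed to 191 to 278 CPM in Stat3-deleted livers, 251 to 489 CPM in tumour-bearing WT livers and 204 to 327 CPM in control livers. Krt18 made up most of these sums, with means of 199, 284 and 212 CPM in the same order. Krt19 had means of 3.11, 4.71 and 2.19 CPM. The sums thus follow mainly 1 gene and do not measure biliary cells. Of 14 Kupffer cell and macrophage markers, 1 (Vsig4) rose in the tumour comparison, against 2.25% of all genes called. In Stat3-deleted against control livers 4 rose (Vsig4, Cd5l, C1qc and Cd68), against 4.85% of all genes called. They summed to 877 to 2329 CPM in Stat3-deleted livers, 871 to 2065 CPM in tumour-bearing WT livers and 492 to 1288 CPM in control livers. These 5 Kupffer cell calls were lost without control replicates 5 and 6. Of 9 endothelial markers, 2 rose in Stat3-deleted against control livers, against 4.85% of all genes called. They were Clec4g (0.69, SE 0.17, adjusted p = 0.0213) and Stab2 (0.70, SE 0.18, adjusted p = 0.0287). Without control replicates 5 and 6 Clec4g was still called (adjusted p = 0.0308) and Stab2 was not (adjusted p = 0.0747). EdgeR called none of the tested stellate, acinar, T and NK cell or erythroid markers in any comparison. The 14 hepatocyte markers summed to 114800 to 130600 CPM in Stat3-deleted livers, 75390 to 150400 CPM in tumour-bearing WT livers and 73620 to 99890 CPM in control livers. Of these, Ttr rose in the Stat3 comparison (0.68, SE 0.17, adjusted p = 0.0154), 1 of 14 against 6.12% of all genes called. In Stat3-deleted against control livers Ttr rose and Apob fell (-1.25, SE 0.27, adjusted p = 0.0124), 2 of 14 against 4.85% of all genes called. The 2 calls against control livers were lost without control replicates 5 and 6 (adjusted p = 0.0542 for Ttr and 0.0527 for Apob). The part of all these signals in the levels of the heat shock genes was not tested.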

How the data were processed

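The deposited table holds raw counts per gene symbol, with 1 column per liver; STAR and mm10 are named in the submitters' processing notes. Not given in the sources used here are the counting tool, the annotation, the strand setting and the treatment of reads that map to more than 1 place. Of 24421 rows, 27 named a date number in place of a gene (0.103 to 0.166% of counts) and were left out, which leaves 24394.

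In R 4.3.3, edgeR 4.0.16 scaled libraries by TMM, filterByExpr kept 11218 genes, and 1 quasi-likelihood fit over 18 livers (15 residual degrees of freedom) gave each comparison. All tests were two-sided, with Benjamini-Hochberg adjustment across every gene tested. The procedure was tested on simulated data. SE is the log2 fold change over the root of its F statistic, and CPM are TMM-scaled.

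The labels do not say that livers of a group came from separate mice, so p-values measure the spread between these samples. The members and lists were chosen with earlier results of these data known. All 10 members are named, as are up to 4 genes per list and comparison with the smallest adjusted p, and Hsf1, Hspa9 and Bag3. The 3 genes nearest in pattern are named for Hsph1, Hsp90aa1 and Hsp90ab1, and the single nearest for each other member. Stip1, Fkbp4 and Ahsa1 were named after their values were seen. Alternatives were RLE factors, library totals, no filter, 1 CPM in 6 libraries, DESeq2 1.42.0, voom of limma 3.58.1 with quality weights, the 2 groups alone, the replicate number or label-number run as a block, the summed Hspa1 pair and each liver left out. Leaving out control replicates 5 and 6 together and fits within a run of label numbers were added after seeing the data. Sequences and motifs are RefSeq's on GRCm38.p6, and gene features GENCODE M21's.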

Additional observations from a re-analysis of the deposited data

Results flagged for a closer look

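In 3 of 30 sets of 6 livers (10 genes in 3 groups) 1 liver lay far from the rest of its group by Dixon's criterion, which chance passes in about 5% of sets. Hspa1b had 22.1 CPM in Stat3-deleted replicate 1, where the next liver of that group had 8.40 CPM. Hspa1b had 25.5 CPM in control replicate 6, where the next control had 8.46 CPM. Hsph1 had 14.1 CPM in tumour-bearing WT replicate 6, where the next lowest liver of that group had 35.1 CPM. In Stat3-deleted against control livers Hspa1b had a difference of -0.58 (adjusted p = 0.557) once Stat3-deleted replicate 1 was left out, against 0.01 with it.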

How the results depend on the processing

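Of 840 alternative values of the member genes, 784 kept their direction and their side of the threshold, 9 passed it and 47 changed sign, and 0 of the 10 genes had been called to begin with. Unless a value shows it, the cause of a change was not tested. With library totals, 3 genes were lower in tumour-bearing WT against control livers, Dnajb1 was -0.17, and in Stat3-deleted against control livers Hspa1b was -0.089 and Hspa8 -0.089. DESeq2 called 3 genes lower and 462 genes in all in the tumour comparison, 1 higher in Stat3-deleted against tumour-bearing WT livers, and 860 in all in Stat3-deleted against control livers. With limma voom, 1 was called higher in Stat3-deleted against tumour-bearing WT livers, where 1097 genes in all were called and Hspa1a was 0.15; in Stat3-deleted against control livers 1318 were called, Hsp90ab1 was 0.070, Hspb1 0.019 and Hspe1 0.0009, and in the tumour comparison Hspa8 was 0.0023. The 2 groups alone gave 128 calls in the tumour comparison and 894 in Stat3-deleted against control livers, with Hspa1b at -0.0051. Hspa1a plus Hspa1b as a sum gave -0.76 in the tumour comparison and 0.80 in Stat3-deleted against tumour-bearing WT livers. Hspa1a alone was 0.58 and -0.23 there. The sum was set against each gene of the pair, so these values are counted as sign changes of Hspa1a among the 47.

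The main fit did not pair livers by replicate number. Same-numbered livers deviated together with a correlation above 0.1 in 4 of 18 pairs (-0.126 to 0.309). The pairs above 0.1 were those of replicate 5 (0.309, 0.19 and 0.167) and replicate 6 of the tumour-bearing groups (0.212). Livers with different numbers were not compared, so these values cannot decide whether the numbers pair livers. With the replicate number as a block 0 members were called, 219, 710 and 570 genes in all were called in the tumour comparison, Stat3-deleted against tumour-bearing WT and Stat3-deleted against control livers, and Dnajb1 was -0.065 in the tumour comparison. With a block for the run of label numbers the tumour comparison called 126 genes, within the lower run 38 and within the higher 50; in the lower run Hspa8 was 0.017, Hsph1 0.049, Hsp90aa1 0.12 and Dnajb1 -0.0007.

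Without control replicates 5 and 6, 128 genes were called in the tumour comparison, with Hspa8 at 0.22 and Hsp90aa1 at 0.10, and 254 in Stat3-deleted against control livers, with Hsph1 at 0.23, Hsp90aa1 at 0.051, Hsp90ab1 at 0.30, Hspb1 at 0.26 and Hspe1 at 0.019. Leaving out 1 liver at a time gave 0 to 1 member genes lower in the tumour comparison and 0 in every other count of members; over all genes the calls were 132 (without tumour-bearing WT replicate 3) to 462 (without replicate 1) in the tumour comparison, 469 to 906 for Stat3-deleted against tumour-bearing WT livers, and for Stat3-deleted against control livers 258 to 783. In those fits Dnajb1 ranged from -0.23 to 0.14 in the tumour comparison, Hspa1a from -0.48 to 0.17 and Hsp90aa1 from -0.21 to 0.020 in Stat3-deleted against tumour-bearing WT livers, and Hspa1b from -0.58 to 0.81, Hspa8 from -0.11 to 0.19 and Hsp90ab1 from -0.40 to 0.042 in Stat3-deleted against control livers. Low counts limit Hspa1a (at most 21 per library), Hspa1b and Hspb1.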
